A study of Homo sapiens with 3 samples.

Results

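The WDR5 siRNA-1 array was set directly against the WDR5 siRNA-2 array, gene by gene, to describe where 2 reagents aimed at the same transcript left BE(2)-C cells in different states. BE(2)-C is an established line of human neuroblastoma cells whose MYCN gene is amplified, and all groups share that background. Cells received a control siRNA or 1 of the WDR5 reagents, siRNA-1 or siRNA-2, for 40 hours, and each group is 1 Affymetrix HuGene-2_0-st array. The difference uses the siRNA-1 and siRNA-2 arrays, and the control array is shown beside it. The level of a gene was the deposited log2 value of its probe set with the highest mean over the 3 arrays. Genes with a mean at or above the median of all named genes were kept, which left 7442 of 14884 genes. The genes just outside and just inside that limit had means of 6.78263 and 6.78287. With 1 array per group no value carries a replicate error and no test was possible, so each value below compares a pair of arrays, and the siRNA and the culture it was applied to cannot be told apart.

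An siRNA is a short double-stranded RNA, 1 strand of which is loaded into an Argonaute protein and guides it to a transcript of matching sequence, which is then cut. Several siRNAs against different stretches of a transcript are commonly used side by side, because each reagent meets the rest of the transcriptome with a sequence of its own. WDR5 is a scaffold protein shared by the COMPASS family of enzymes, which place methyl groups on histone H3 at active promoters. The siRNA sequences were not analysed here.

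WDR5 itself stood at the same log2 level, 7.90, on both arrays, against 9.46 on the control array, so the pair of reagents did not differ in the measured level of their target. An exact tie like this was common, since 21.5% of kept genes had identical values on the siRNA-1 and siRNA-2 arrays. The subunits of the WDR5-containing methyltransferase and acetyltransferase complexes had a median difference of 0.02 (siRNA-1 minus siRNA-2, log2) over the 24 kept of 29 listed genes. None of the 24 was at least 1.5-fold apart, where 4.21% of all kept genes were higher and 4.65% lower by as much. The member furthest apart was OGT, the O-GlcNAc transferase that joins several of these complexes, at 10.66 with siRNA-1, 11.18 with siRNA-2 and 11.18 with control. MEN1 (menin) was also lower with siRNA-1, at 7.94 against 8.36. KMT2C, a methyltransferase of the family, and DPY30, a core subunit, were higher with siRNA-1, at 10.57 against 10.15 and at 11.97 against 11.58.

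Among the 7442 kept genes 659 were at least 1.5-fold apart at the equal WDR5 level. At least 1.5-fold higher on the siRNA-1 array were 313 genes, 4.21% of those kept, and 346 genes, 4.65%, were at least 1.5-fold lower. At least 2-fold higher were 70 genes (0.941%) and at least 2-fold lower 97 (1.3%). The median difference over all kept genes was 0.00, the lower and upper quartiles were -0.10 and 0.15, and 43.1% were higher and 35.5% lower by any amount. These are the values against which each gene group below should be read. Without the filter on low levels the shares were 2.63% higher and 2.8% lower. With the kept genes split by mean level into 4 equal bins, 3.01% were higher and 2.69% lower in the lowest bin, and 4.14% and 5.21% in the highest.

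**Figure D1:**
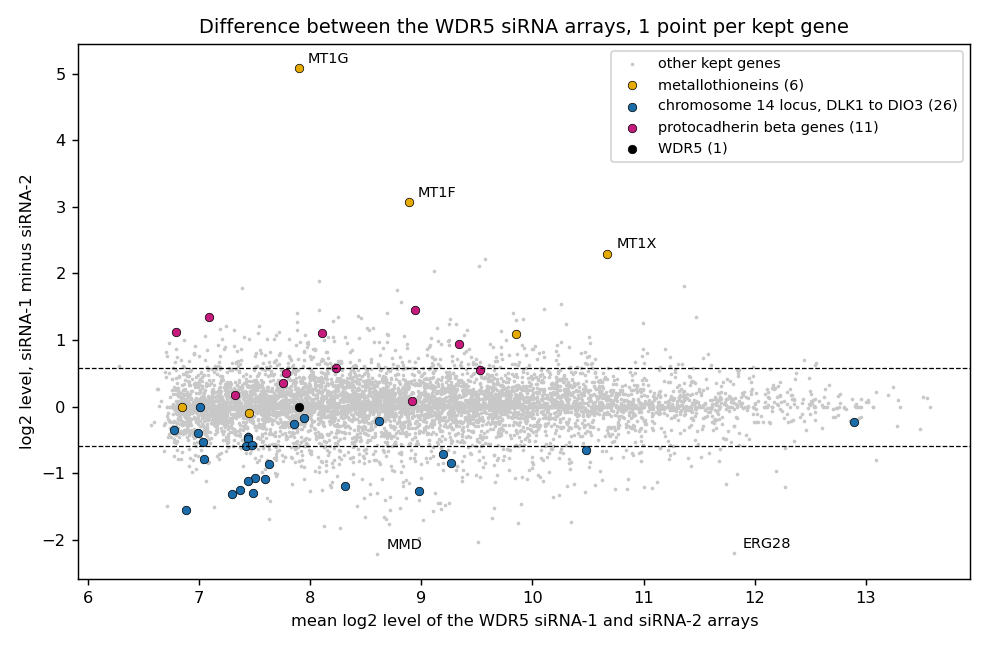
Log2 level on the siRNA-1 array minus that on the siRNA-2 array (vertical axis) against the mean log2 level of the pair (horizontal axis), 1 point per kept gene (7442), with dashed lines at 1.5-fold. MT1G, MT1F and MT1X lie furthest above 0, MMD and ERG28 furthest below, the 26 genes of the chromosome 14 locus lie at or below 0 and WDR5 lies at 0.

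The control array was then set beside these genes, which were picked by the gap between the WDR5 siRNA arrays. Among the 313 genes higher with siRNA-1, the control value lay nearer to siRNA-1 in 197 and nearer to siRNA-2 in 116. At least 1.5-fold from control with siRNA-2 alone were 137 of them, with siRNA-1 alone 69, and with neither 97. Only 10 were that far from control with both, 7 in opposite directions. Opposite directions need a gap well above 1.5-fold, and 70 genes were at least 2-fold higher. The count with both is therefore limited by how the genes were picked. For comparison, over all kept genes 4% were at least 1.5-fold lower and 2.19% higher with siRNA-2 than with control, and 4.6% lower and 2.24% higher with siRNA-1. Among the 346 genes lower with siRNA-1, the control value lay nearer to siRNA-2 in 245 and nearer to siRNA-1 in 101. At least 1.5-fold from control with siRNA-1 alone were 169 of these, with siRNA-2 alone 51, with neither 112 and with both 14. In both sets the array nearer to control was thus more often the higher of the pair. The single control array enters each of these counts.

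The metallothioneins led the genes higher with siRNA-1. These small cysteine-rich proteins bind zinc and copper, and their genes sit side by side on chromosome 16 and are switched on by the metal-sensing factor MTF1 through metal response elements in their promoters. Of 11 listed genes 10 were measured and 6 kept, with a median difference of 1.69. Over the 10 measured the median was 0.15, with 6 higher, 3 lower and 1 tied, and 4 at least 1.5-fold higher. MT1G stood at 10.44 with siRNA-1, 5.36 with siRNA-2 and 7.36 with control. Its siRNA-2 value lies below the filter level of 6.78, which the gene reached only through its siRNA-1 value, so the size of its difference is uncertain. MT1F stood at 10.43, 7.35 and 9.10, and MT1X at 11.82, 9.52 and 10.87. In all 3 the control array lay between the others, so each was above control with siRNA-1 and below it with siRNA-2. MT2A showed the same order with a smaller gap, at 10.40, 9.31 and 9.87. MT1E was listed at 6.85 on all 3 arrays and MT4, an epithelial member, differed by -0.10. The 4 measured members below the filter level, MT1B, MT1H, MT1M and MT3, differed by 0.00, -0.42, 0.14 and 0.17. The metallothionein genes are close copies of each other, so probes of one may read another. MTF1 was at 9.37 with siRNA-1 and 9.36 with siRNA-2, and the copper chaperone genes ATOX1 and CCS differed by 0.00 and 0.01.

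The RefSeq promoter table (GRCh38.p14) held 5 of the measured metallothionein genes, and 3 are shown as examples of members with a large, a smaller and almost no difference: the 250 bases before the start site of MT1X (chr16:56682220-56682469, plus strand), MT2A (chr16:56608334-56608583, plus strand) and MT4 (chr16:56564823-56565072, plus strand). Capitals mark the core of the metal response element, searched as TGCACNC and TGCGCNC on both strands, overlaps allowed.
MT1X: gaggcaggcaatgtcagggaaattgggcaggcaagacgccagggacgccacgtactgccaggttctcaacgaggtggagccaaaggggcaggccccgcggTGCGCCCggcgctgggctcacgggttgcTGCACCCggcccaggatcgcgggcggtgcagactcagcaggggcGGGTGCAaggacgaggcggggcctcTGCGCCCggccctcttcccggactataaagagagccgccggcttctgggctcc
MT2A: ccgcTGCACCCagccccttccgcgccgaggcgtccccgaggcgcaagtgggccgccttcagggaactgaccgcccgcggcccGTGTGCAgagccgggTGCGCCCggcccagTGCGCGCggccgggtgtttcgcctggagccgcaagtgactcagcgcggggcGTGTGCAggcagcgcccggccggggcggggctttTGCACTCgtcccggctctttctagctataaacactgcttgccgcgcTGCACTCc
MT4: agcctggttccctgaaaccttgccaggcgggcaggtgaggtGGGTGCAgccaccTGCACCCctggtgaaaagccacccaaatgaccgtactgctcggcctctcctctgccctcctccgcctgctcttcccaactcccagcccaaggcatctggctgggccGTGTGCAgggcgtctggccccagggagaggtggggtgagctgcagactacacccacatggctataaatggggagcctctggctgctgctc
The motif started at 4 places in the MT1X window, 7 in that of MT2A and 3 in that of MT4. Of 35116 promoters of this length, 1.58% held at least 3 starts, 0.37% at least 4 and 0.0313% at least 7. MT1H held 8 and MT1B held 3, and neither was higher with siRNA-1. A match is a run of letters and not a measured binding site.

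A large group of neighbouring genes that lay on the same side was found on chromosome 14, in the imprinted region from DLK1 to DIO3. Imprinted genes are read from the chromosome of 1 parent only. In this region the maternal copy gives long noncoding RNAs, among them MEG3, and a very large group of miRNA genes, and the paternal copy gives the protein-coding genes DLK1 and RTL1. The region was picked out after its values were seen, and its members are all 57 measured genes that RefSeq places between DLK1 and DIO3. All 26 kept members except MIR370, which was tied, had the lower value on the siRNA-1 array, with a median difference of -0.68. At least 1.5-fold lower were 15 of the 26, against 4.65% of all kept genes, and 0 were higher. Of the 57 measured members, 47 were lower by any amount, 2 higher and 8 tied, with a median of -0.47.

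The miRNA genes of the region had the largest gaps. On this whole-transcript array a probe set named for a miRNA gene reads RNA that holds the hairpin sequence, and the primary transcript, the hairpin and the mature miRNA cannot be told apart. MIR487B stood at 6.11 with siRNA-1, 7.67 with siRNA-2 and 6.76 with control. It reached the filter level only through its siRNA-2 value, as did MIR668. MIR541 also needed its siRNA-2 value to reach that level, but this value, 6.95, equalled its control value. MIR300 stood at 6.64, 7.95 and 7.27, and MIR323B at 6.83, 8.13 and 7.24. Control again lay between the pair in MIR487B, MIR300 and MIR323B. MIR544A (8.35, 9.61 and 9.03), MIR656 (6.97, 8.04 and 7.35) and MIR889 (6.88, 8.01 and 7.49) showed that order too. MIR770, which lies within the MEG3 transcript, differed in pattern: it was at 7.71 with siRNA-1, 8.91 with siRNA-2 and 7.49 with control. Of the 22 kept miRNA genes of the region 13 were at least 1.5-fold lower with siRNA-1, with a median of -0.82. Among the 169 kept miRNA genes elsewhere, 4 were lower and 4 higher by as much, with a median of -0.01. The median level of the 22 was 7.03 with siRNA-1 and 7.99 with siRNA-2, within the range of the array's background rows (1.75 to 9.26).

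The mature sequences of the miRNA with the largest gap and of 3 pairs with a common seed, out of 10 seeds shared within the region, are given from RefSeq (GRCh38.p14), with the seed, bases 2 to 8, in capitals.
hsa-miR-487b-3p: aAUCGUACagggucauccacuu
hsa-miR-154-3p: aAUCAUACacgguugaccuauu
hsa-miR-487a-3p: aAUCAUACagggacauccaguu
hsa-miR-539-3p: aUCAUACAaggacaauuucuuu
hsa-miR-485-3p: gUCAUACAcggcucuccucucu
hsa-miR-300: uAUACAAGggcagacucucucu
hsa-miR-381-3p: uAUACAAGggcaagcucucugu
The pairs miR-154-3p and miR-487a-3p, miR-539-3p and miR-485-3p, and miR-300 and miR-381-3p each have 1 seed in common. These are examples, all from genes lower with siRNA-1. The other shared seeds had only lower genes, lower and tied genes, or, in some, genes on both sides. Seed GUGGAUA is shared by MIR376C (0.45) and MIR376B (-0.37), and GGUUGUC by MIR494 (0.10), MIR323B (-1.30) and MIR410 (-0.51). All 53 measured miRNA genes of the region matched the table, with 92 different mature names and 81 different seeds. Of these genes MIR154 differed by -0.86, MIR485 by -0.79, and MIR381 and MIR487A, both below the filter level, by -0.74 and -0.44. Hairpins of this region are similar to each other, and MIR329-1 and MIR329-2 (-0.84 each) are near-identical copies whose values are not independent.

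The long transcripts of the region lay on the same side as the miRNA genes. MEG3 had 2 probe sets, at 10.16 and 8.76 with siRNA-1, at 10.81 and 9.68 with siRNA-2, and at 10.26 and 8.20 with control. They were apart by -0.65 and -0.92, but the second was above control with both siRNAs. MEG9, another noncoding RNA, stood at 7.22 with siRNA-1 and 7.67 with siRNA-2. RTL1, a retrotransposon-derived gene of the paternal copy, stood at 8.84, 9.54 and 9.19 with siRNA-1, siRNA-2 and control, and its second, dimmer probe set at 6.66, 6.79 and 6.66. DLK1, a Notch-like membrane protein gene of the paternal copy, stood at 12.78, 13.01 and 12.72, a difference of -0.23. Beside control, 24 of the 26 kept members were higher with siRNA-2 and 0 lower, with a median of 0.51 and 8 at least 1.5-fold higher, while 21 were lower and 4 higher with siRNA-1, with a median of -0.27 and 4 at least 1.5-fold lower.

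**Figure D2:**
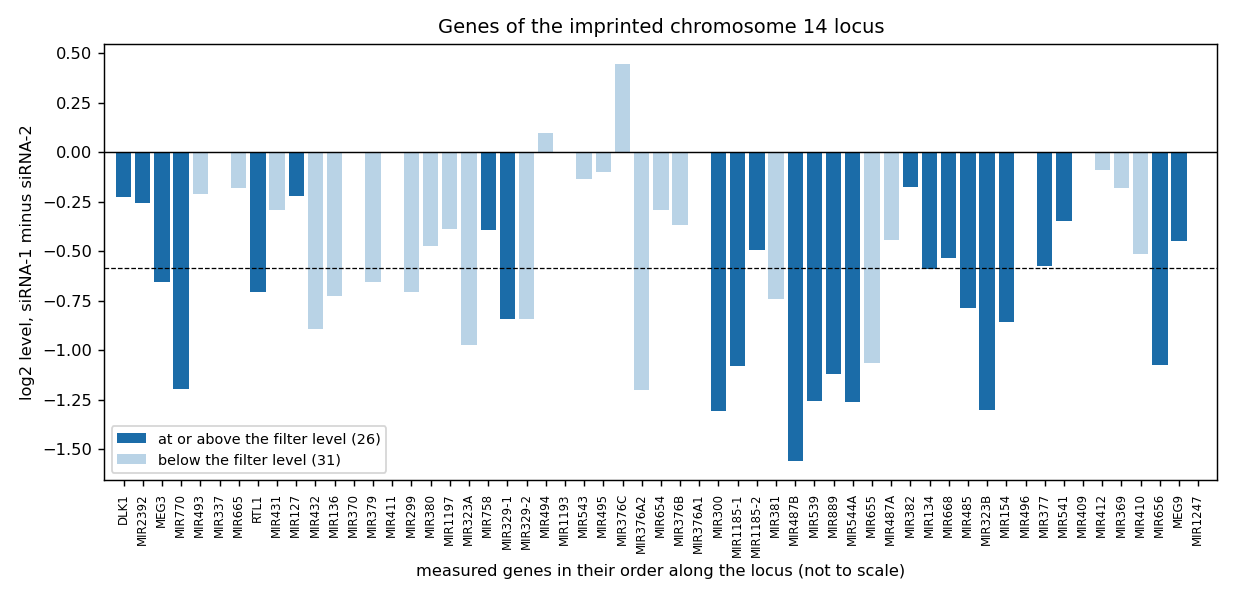
Log2 level on the siRNA-1 array minus that on the siRNA-2 array for the 57 measured genes from DLK1 towards DIO3, in genomic order and not to scale, with a dashed line at 1.5-fold lower. Dark bars are the 26 genes at or above the filter level and pale bars the 31 below it. All bars but those of MIR494 and MIR376C lie at or below 0.

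A second gene cluster, the beta protocadherins of chromosome 5, lay on the opposite side. Protocadherins are cadherin-like adhesion proteins, and neurons choose among the clustered copies to give each cell a surface identity. Of 32 measured protocadherins 18 were higher with siRNA-1, 5 lower and 9 tied, with a median difference of 0.08. The 17 kept had a median of 0.36. At least 1.5-fold higher were 5 (29.4%), all of them beta genes, and lower was 1 (5.88%), against 4.21% and 4.65% of all kept genes. Of the 19 measured beta genes 17 were higher with siRNA-1 and 2 tied, with a median of 0.36 and 6 at least 1.5-fold higher, against 2.63% of all genes without the filter. The 11 kept had a median of 0.58, and 2 of them, PCDHB13 and PCDHB9, reached the filter level only through their siRNA-1 value. Splitting off the beta genes was decided after their values were seen. PCDHB13 stood at 7.76 with siRNA-1, 6.42 with siRNA-2 and 6.69 with control. PCDHB2 stood at 8.66, 7.55 and 7.97, and PCDHB14 at 9.81, 8.87 and 8.89. PCDHB9 (7.36, 6.23 and 7.04) and the expressed pseudogene PCDHB18P (9.67, 8.21 and 9.44) were instead near control with siRNA-1 and below it with siRNA-2. The beta genes are similar in sequence, so their values are not independent of each other. Of the 6 kept protocadherins outside the beta cluster, PCDH1 (6.45 against 7.42), PCDH10 (9.11 against 9.64) and PCDH17 (8.62 against 8.79) were lower with siRNA-1, PCDH9 (10.89 against 10.79) was higher, and PCDH18 and PCDH7 were tied.

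Genes of lipid synthesis lay on the low side with siRNA-1. The enzymes of cholesterol synthesis are switched on together by SREBP2, the product of SREBF2, and those of fatty acid synthesis mainly by SREBP1. Of the 16 kept genes of the cholesterol list 13 were lower, 2 higher and 1 tied, with a median of -0.25, but 0 were at least 1.5-fold apart. SREBF2 stood at 9.57 with siRNA-1, 10.14 with siRNA-2 and 9.81 with control. MVD, which makes isopentenyl diphosphate, stood at 9.01, 9.51 and 8.79, and SQLE, the squalene epoxidase gene, at 11.58, 11.94 and 11.45. MVD and SQLE were thus above control with siRNA-2 and less so with siRNA-1. HMGCS1, at the entry of the pathway, followed that order (10.42, 10.65 and 9.96), as did ACAT2 (10.48, 10.88 and 10.06), NSDHL (11.07, 11.42 and 10.77) and DHCR7 (10.11, 10.29 and 9.55). INSIG1, whose protein holds the SREBP complex back in the endoplasmic reticulum, was higher with siRNA-1, at 11.47, than with siRNA-2, at 11.20, and stood at 10.76 with control. PMVK, a kinase of the pathway, was also higher with siRNA-1 (7.33, 7.14 and 7.33), and MVK (8.29, 8.79 and 8.43) was below control with siRNA-1. Beside control the median of the kept members was 0.08 on the siRNA-1 array and 0.40 on the siRNA-2 array, and 1 and 5 of them were at least 1.5-fold higher.

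The fatty acid list was shifted by a similar amount, with a median of -0.19 over 16 kept members, of which 11 were lower, 2 higher and 3 tied. At least 1.5-fold lower were 3 (18.75%), against 4.65% of all kept genes. ACSL4, which activates arachidonic acid and related fatty acids, stood at 9.65 with siRNA-1, 10.64 with siRNA-2 and 9.86 with control. SCD, the stearoyl-CoA desaturase gene, stood at 12.69, 13.50 and 13.36, and its second probe set at 6.19, 7.97 and 7.44. ACSS2, an acetyl-CoA synthetase gene, stood at 7.70, 8.45 and 7.64. SCD was therefore below control with siRNA-1, and ACSL4 and ACSS2 above control with siRNA-2. ACACA, ACLY and FASN, the core enzymes of fatty acid synthesis, differed by -0.30, -0.20 and -0.20. The gene with the second lowest difference of all, ERG28, encodes a membrane scaffold that holds sterol-synthesis enzymes together. It was on no list, and it stood at 10.71 with siRNA-1, 12.91 with siRNA-2 and 12.47 with control.

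Most genes that copy DNA had the higher value with siRNA-1, and the regulators of entry into S phase were divided. The replicative helicase is loaded as the MCM2 to MCM7 ring and activated by CDC45 and the GINS complex. Of 24 kept genes of the replication list 19 were higher with siRNA-1, 4 lower and 1 tied, with a median of 0.17. At least 1.5-fold higher were 2 (8.33%) and lower 1 (4.17%), against 4.21% and 4.65% of all kept genes. GINS4 stood at 9.10 with siRNA-1, 8.22 with siRNA-2 and 8.92 with control, and GINS1 at 11.07, 10.48 and 11.02. CDC45 stood at 10.50, 9.95 and 10.45. In these 3 genes siRNA-1 was near control and siRNA-2 below it. A second, dim probe set of GINS4 differed the other way (-0.43). MCM3 was the member furthest on the other side, at 10.64 with siRNA-1, 11.31 with siRNA-2 and 11.70 with control, and CDC7, CDT1 and DBF4, which act in origin licensing and firing, were lower by 0.24, 0.16 and 0.09. Beside control, the list's median was -0.17 on the siRNA-1 array and -0.34 on the siRNA-2 array.

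Among the cyclins, E2F factors and their kinases, 19 kept genes had a median of 0.00, with 9 higher, 8 lower and 2 tied. At least 1.5-fold higher was 1 (5.26%) and lower were 3 (15.8%), against 4.21% and 4.65% of all kept genes. CDK2, the kinase partner of cyclin E, stood at 9.01 with siRNA-1, 10.06 with siRNA-2 and 10.35 with control. E2F7, a repressor of the family, stood at 7.88, 8.66 and 9.31, and CDC25A, the phosphatase that activates CDK2, at 8.59, 9.30 and 9.45. In each, siRNA-1 was the array further from control. E2F2 (-0.51), CDK4 (-0.48) and E2F1 (-0.46) lay on that side too. CCNE1, which encodes cyclin E1, went the other way: it stood at 6.59 with siRNA-1, 5.98 with siRNA-2 and 8.36 with control, with both WDR5 siRNA values below the filter level. CCNE2 and CCNA2 were higher with siRNA-1 by 0.41 and 0.34.

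**Figure D3:**
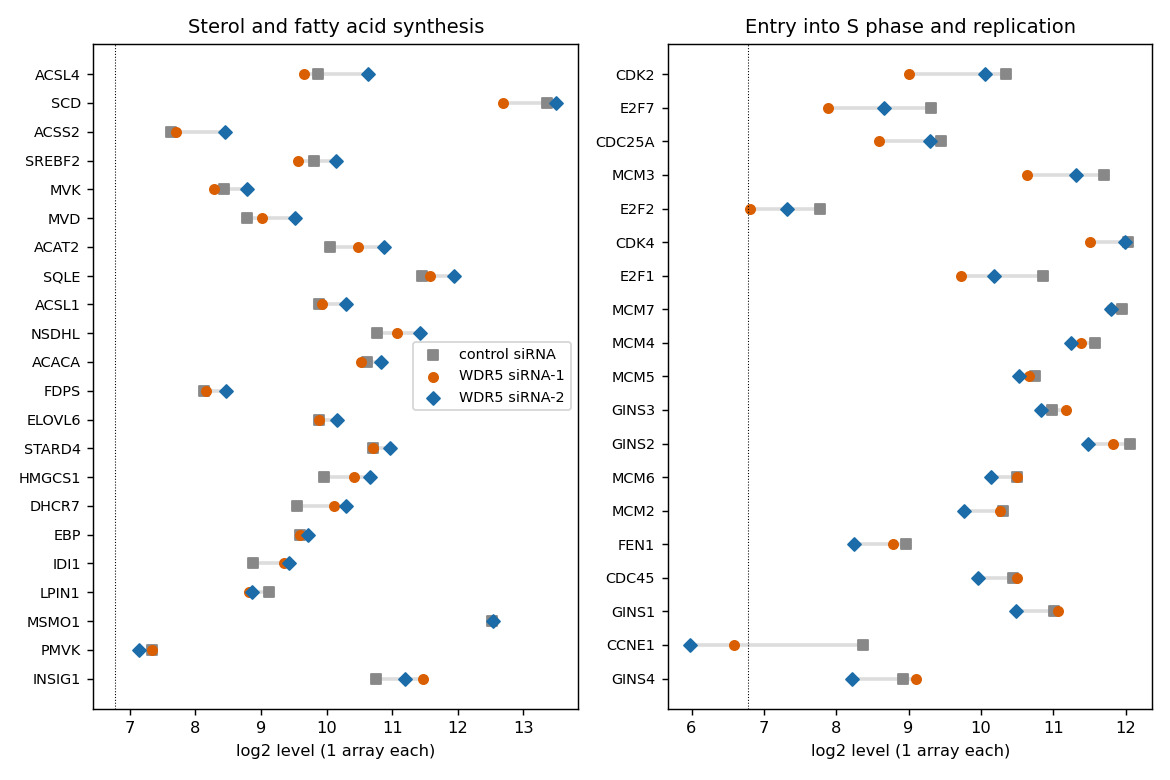
Log2 level on each of the 3 arrays (1 array each) for genes of sterol and fatty acid synthesis (left) and of entry into S phase and replication (right), ordered by the difference between the WDR5 siRNA arrays; the dotted line is the filter level, 6.78. SREBF2 and most sterol genes are highest with siRNA-2, CDK2 and CDC25A are lowest with siRNA-1, and GINS4 and GINS1 are lowest with siRNA-2.

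Most of the listed repair and mitotic genes were on the same side as replication, but hardly any were 1.5-fold apart. Homologous recombination, Fanconi and mismatch repair genes numbered 15 kept members with a median of 0.29, of which 12 were higher, 3 lower and 0 at least 1.5-fold apart. CHEK2, a DNA damage kinase, stood at 7.62 with siRNA-1, 7.05 with siRNA-2 and 7.98 with control, and BRIP1, a helicase of the BRCA1 complex, at 10.18, 9.65 and 10.89. BARD1, the partner of BRCA1, was lower with siRNA-1 (8.20 against 8.64). The size of this median depended on a few members: it was 0.09 without the filter and 0.08 at the 75th percentile filter. Of the mitotic and G2/M genes 58 were kept, 39 of them higher and 12 lower, and their median was 0.05. CENPH, a kinetochore gene, stood at 9.15, 8.53 and 9.17. It was the 1 member at least 1.5-fold higher, 1.72% of the list against 4.21% of all kept genes. BUB1 and MAD2L1, of the spindle checkpoint, were higher by 0.57 and 0.51, and CENPM was lower by 0.58. ANAPC13, a gene of the anaphase-promoting complex that was on no list, was 3.25-fold lower with siRNA-1.

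Among adrenergic neuroblastoma genes a few members differed in either direction. Transcription factors of this cell type include PHOX2A, HAND2, GATA3 and ISL1, and it makes noradrenaline through TH, DDC and DBH. The 25 kept genes of 35 listed had a median of 0.00. At least 1.5-fold higher was 1 (4%) and lower were 2 (8%), against 4.21% and 4.65% of all kept genes. DBH, which converts dopamine to noradrenaline, stood at 9.58 with siRNA-1, 10.90 with siRNA-2 and 10.39 with control. CHGA, the granule protein chromogranin A, stood at 10.40, 11.60 and 10.87. GCH1, which makes the cofactor of TH, went the other way, at 9.64, 8.66 and 8.71. Control lay between the pair for DBH and CHGA and beside siRNA-2 for GCH1. CHGB, another granule protein gene (-0.37), and the transcription factor genes GATA2 (-0.37), PHOX2A (-0.22) and ISL1 (-0.17) were lower with siRNA-1, INSM1 (0.55), HAND2 (0.33) and GATA3 (0.30) higher, and TH and DDC differed by 0.00.

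Neuronal surface and signalling genes showed several single differences. RET, a receptor tyrosine kinase, stood at 9.79 with siRNA-1, 10.96 with siRNA-2 and 9.47 with control, and the growth factor gene MDK (midkine) at 10.44, 9.58 and 10.35. NPY2R, a neuropeptide Y receptor, stood at 9.48, 11.21 and 10.55. BAMBI, a decoy receptor of the TGF-beta family, stood at 10.13, 11.36 and 10.95, and BCL2, the survival gene, at 8.28, 9.18 and 8.81. All but MDK had the lower value on the siRNA-1 array, but these are single genes picked from several lists. By any amount, 7 kept genes of the receptor tyrosine kinase list were higher and 6 lower. The TGF-beta and BMP list had 7 higher and 5 lower, and the apoptosis regulators 6 and 4. BCL2L11, an apoptosis regulator, was higher with siRNA-1 (7.97, 7.29 and 7.29). Of 29 kept genes of axon growth and the neuronal cytoskeleton 16 were lower and 7 higher, with a median of -0.05. At least 1.5-fold lower were 4 (13.8%) and higher 0, against 4.65% and 4.21% of all kept genes. NRP2, a semaphorin receptor, stood at 7.17, 8.21 and 7.17, so it was apart from control only with siRNA-2. MAPT (tau) stood at 7.76, 8.66 and 8.38, GAP43 at 8.96, 9.64 and 9.93, and the guidance gene SLIT3 at 10.84, 11.46 and 11.03. SYN2 and SYT2, of synaptic vesicles, were lower with siRNA-1 by 0.73 and 0.78, and VAMP3, a SNARE of recycling endosomes, was 2.45-fold higher.

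Some markers associated with the mesenchymal state of neuroblastoma were higher with siRNA-1. Of 9 kept markers 5 were higher and 1 lower, with a median of 0.14 that was 0 without the filter. Of the 22 measured, 6 were higher, 3 lower and 13 tied. The kept lower member was FOSL2, at 8.31 with siRNA-1, 8.61 with siRNA-2 and 8.31 with control. VIM (vimentin) stood at 8.96 with siRNA-1, 7.93 with siRNA-2 and 8.21 with control, and 1 of its other probe sets also differed by 0.91 while the remaining one was tied. SNAI2, a transcription factor of epithelial to mesenchymal transition, stood at 12.88, 12.22 and 12.16. Lumican (LUM), a matrix proteoglycan, stood at 10.40, 9.86 and 8.88, and was thus well above control with both siRNAs.

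Genes of metabolism and stress included some large single differences. PHGDH, the first enzyme of serine synthesis, stood at 8.44 with siRNA-1, 9.90 with siRNA-2 and 9.99 with control. PSAT1 and PSPH, the next enzymes of that pathway, differed by -0.17 and -0.14, and SHMT2 by 0.00. The 9 kept genes of serine, glycine and one-carbon synthesis had a median of -0.06. The 13 kept genes of the amino acid response driven by ATF4 had a median of -0.10, with 8 lower and 2 higher. SESN2, a sensor of leucine, was the 1 member at least 1.5-fold apart (7.49, 8.31 and 8.02). In the endoplasmic reticulum the chaperone genes HYOU1 and SDF2L1 were each 1.57-fold lower with siRNA-1, while the list had a median of 0.00. PGAM1, a glycolytic mutase, stood at 7.40, 8.15 and 7.76, but the 9 kept glycolysis genes had a median of 0.01. The 12 kept hypoxia targets had a median of -0.03. At least 1.5-fold higher were 3 (25%), against 4.21% of all kept genes. By any amount, 5 of the 12 were higher, 6 lower and 1 tied. Of these, ANKRD37 (7.98, 7.12 and 6.96), BNIP3L (11.36, 10.60 and 11.60) and KDM3A (8.25, 7.63 and 7.59) were at least 1.5-fold higher with siRNA-1, and BNIP3 (10.45, 10.98 and 10.82), ERO1A (-0.43) and JMJD6 (-0.34) were lower. In ceramide metabolism ACER3 was 2.40-fold lower and GALC 2.18-fold higher.

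Genes of gene expression itself gave small shifts over many members, and shifts this small depend in part on the scaling of the arrays. Under quantile normalization the median of all differences was -0.03 instead of 0.00. The 71 kept mitochondrial ribosomal protein genes had a median of 0.09. By any amount 51 (71.8%) were higher and 7 (9.86%) lower, against 43.1% and 35.5% of all kept genes. At least 1.5-fold higher were 3 (4.23%), about the 4.21% of all kept genes. MRPS12 stood at 8.18 with siRNA-1, 7.17 with siRNA-2 and 8.03 with control. The 45 kept cytoplasmic ribosomal protein genes had the same median, 0.09, with 30 (66.7%) higher and 9 (20%) lower. RPS15A (8.34, 7.41 and 8.81) stood out among them, though genes of this class have many near-identical pseudogenes. The 29 kept ribosome biogenesis genes had a median of 0.10 and 0 of them were 1.5-fold apart. EEF2, the elongation factor that moves the ribosome along, stood at 12.85, 12.23 and 13.23. SNHG16, a snoRNA host transcript, was the member furthest apart in its list, at 11.67, 12.88 and 12.67. SUZ12, a Polycomb subunit, stood at 10.57, 11.38 and 11.46, whereas the 57 kept histone-modifying enzymes outside the WDR5 complexes had a median of 0.01.

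The ZNF zinc finger genes, many of which encode KRAB repressors that silence transposable elements, were more often higher than lower with siRNA-1. Of 296 kept genes 172 were higher and 46 lower by any amount, 18 were at least 1.5-fold higher and 3 lower, and the median was 0.06. At least 1.5-fold, this is 6.08% higher and 1.01% lower, against 4.21% and 4.65% of all kept genes. ZNF681 stood at 9.10 with siRNA-1, 7.92 with siRNA-2 and 7.95 with control, and ZNF354C at 7.77, 6.61 and 7.77. These genes share much sequence, so they are not independent.

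The remaining lists had medians near 0, though some leaned to 1 side by any amount. With siRNA-1, 37 of 60 kept centrosome and cilium genes were higher and 10 lower. Of 48 kept splicing factors 26 were higher and 10 lower. Of 27 kept Notch and Wnt genes 4 were higher and 16 lower. Medians between -0.10 and 0.10 were found for nucleotide synthesis, tRNA synthetases, translation factors, oxidative phosphorylation, cytosolic chaperones, NRF2 targets, p53 targets, apoptosis regulators, immediate-early genes, interferon-stimulated genes, small RNA silencing, the MYC and MAX network, splicing factors, nuclear transport receptors, growth factor receptors, the insulin-like growth factor axis, synaptic vesicles, matrix genes, sphingolipid enzymes, centrosome and cilium genes, lysosome and autophagy, TGF-beta, Notch and Wnt signalling, snoRNA hosts, kinesins, HOX genes and housekeeping references. Among the single members, IPO11 (10.36, 9.48 and 10.18) and KPNA4 (10.40, 9.69 and 10.09) of nuclear import were higher with siRNA-1 and IPO7 (11.02, 11.79 and 11.85) lower. JUND, of the AP-1 family, stood at 8.73, 7.68 and 8.44. EIF2AK2 (PKR, a sensor of double-stranded RNA) stood at 10.02, 10.46 and 10.50. Of the interferon-stimulated genes 0 of 6 kept members were 1.5-fold apart, and 17 of the 23 measured were tied. ISG15 (7.32) and IFITM3 (7.29) had the same value on all 3 arrays. These values lie within the range of the background rows (1.75 to 9.26), so their detection could not be judged.

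**Figure D4:**
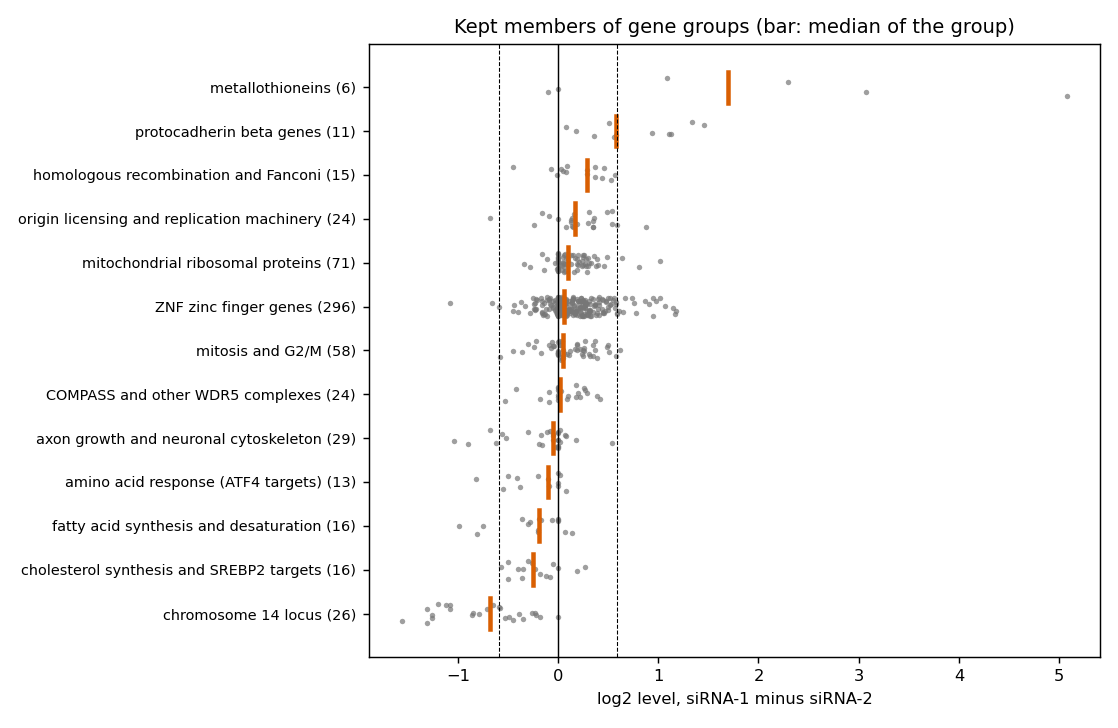
Log2 level on the siRNA-1 array minus that on the siRNA-2 array for each kept member (grey points) of 13 gene groups, with the number of kept members in brackets, the group median as an orange bar and dashed lines at 1.5-fold. The medians run from 1.69 for metallothioneins to -0.68 for the chromosome 14 locus, and the cholesterol and fatty acid groups lie at -0.25 and -0.19.

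The genes furthest apart otherwise came from unrelated functions. Behind the metallothioneins, the highest differences belonged to TMEM30A, a subunit of the lipid flippases, at 10.69 with siRNA-1, 8.47 with siRNA-2 and 10.12 with control, and to UHMK1, a kinase gene, at 10.57, 8.46 and 9.21. HIPK3, another kinase gene, stood at 10.13, 8.10 and 8.87, and MOB1B, a Hippo pathway co-activator, at 9.02, 7.15 and 8.45. NORAD, an abundant noncoding RNA that binds Pumilio proteins, stood at 12.27, 10.46 and 11.70. AP1AR, ZFP90, ZBTB41, TPD52L2, MEX3C (an RNA-binding ubiquitin ligase), SEPSECS (selenocysteine synthesis) and SMAGP followed, from 3.42-fold to 2.66-fold. In all 15 of the highest genes, counted without the pseudogene PCDHB18P, which ranks among them, the control value lay between the others. At least 1.5-fold from control were 13 with siRNA-2 and 9 with siRNA-1. Their differences were at least 1.41, so at least 1 siRNA had to lie that far from control. Among the 313 genes at least 1.5-fold higher, control lay between in 214.

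At the other end MMD, a membrane protein gene, stood at 7.50 with siRNA-1, 9.72 with siRNA-2 and 10.47 with control, and was the only one of the 15 lowest whose control value did not lie between. MRAP2, an accessory protein of melanocortin receptors, stood at 8.50, 10.53 and 9.08, and LRRTM1, a synaptic adhesion protein gene, at 7.99, 9.97 and 8.87. KIF3B, a motor subunit of transport in cilia, stood at 7.36, 9.18 and 8.50, while its partner KIF3A differed by only -0.39. TSPAN13 (7.23, 9.02 and 8.92), TOMM34 (8.99, 10.74 and 10.71), ANAPC13 (8.17, 9.87 and 9.79), DOLPP1 (8.80, 10.47 and 10.43) and RBPMS2 (7.67, 9.33 and 9.25) had nearly the same level with siRNA-2 and control and a lower one with siRNA-1. CNIH1, TPBGL, ARHGEF26 and MED12L completed the 15, from 3.41-fold to 3.16-fold lower. At least 1.5-fold from control were 14 of the 15 with siRNA-1 and 7 with siRNA-2. Here too the size of the differences required this of at least 1 siRNA. Among the 346 genes at least 1.5-fold lower, control lay between in 239.

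**Figure D5:**
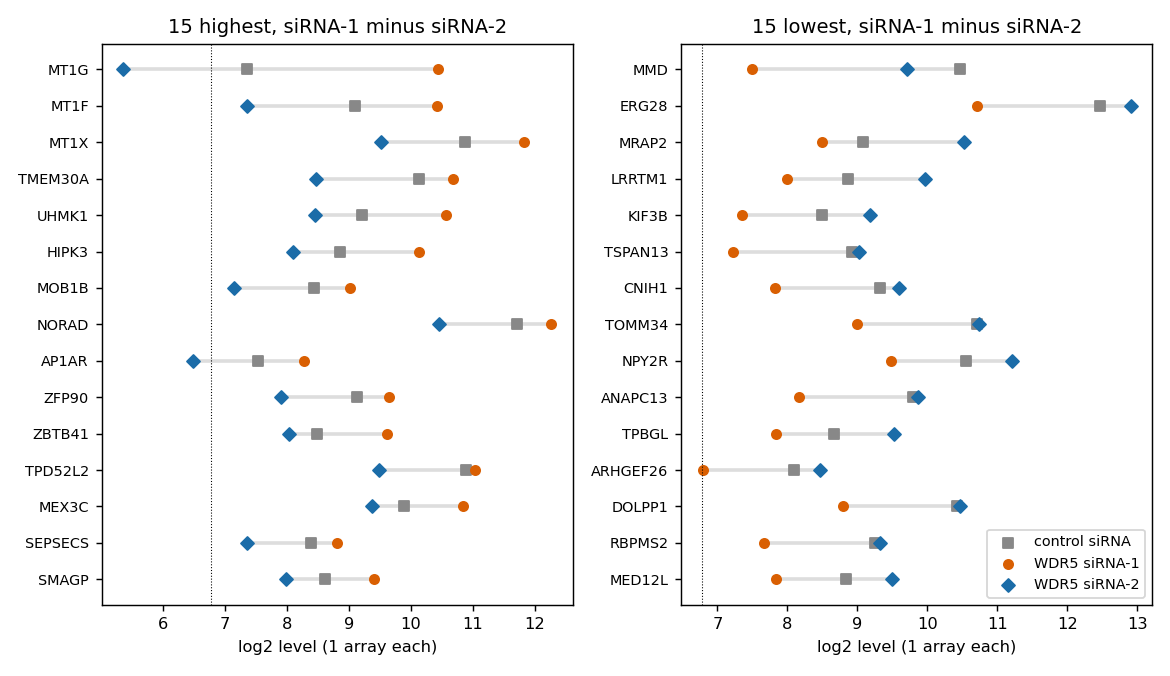
Log2 level on each of the 3 arrays (1 array each) for the 15 kept genes with the highest difference, leaving out the pseudogene PCDHB18P (left) and the 15 with the lowest (right), siRNA-1 minus siRNA-2; the dotted line is the filter level, 6.78. In the left panel control lies between the siRNAs in all 15 genes, and in the right panel siRNA-1 is the lowest array in all 15.

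The labelled cell type was checked against its markers on both arrays. Of 11 defining adrenergic genes 9 were measured, all above the filter level, at log2 levels of 7.29 to 11.60. Of the Schwann cell, leukocyte and endothelial genes, SOX10, S100B and VWF had the same value on both arrays, CD68 was at 8.14 and 7.83, and CD14 and PECAM1 stood below the filter level with differences of -0.15 and -0.24. Of the stromal genes DCN was tied at 4.80 and LUM is given above. SOX10 (6.96), S100B (6.83), CD68 and LUM were also above the filter level, so passing it did not set the labelled cell type apart. The part of other cell types in the differences was not tested.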

How the data were processed

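Expression was measured on 3 Affymetrix HuGene-2_0-st arrays, 1 per siRNA. The deposited table holds 53617 probe sets, whose values, as deposited by the authors, were taken to be log2; they run from 1.34 to 14.9; no header names their scale, and all folds depend on this reading. Per the submitters' processing notes MAS5 was used, with the step not given in the sources used here; background correction and normalization are likewise not given. Array medians were 5.81 (control), 5.79 and 5.79, and no further scaling was applied. The 23 background rows ran from 1.75 to 9.26, so detection of dim genes could not be judged, and their folds are uncertain.

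Gene names came from the platform annotation (16098 with 1 symbol, all matched to RefSeq, GRCh38.p14). Where a gene had several (779 genes), the one with the highest mean was used. MYCN itself was not analysed here. The difference, its counts at 1.5-fold and group medians (at least 5 kept members) were computed with Python 3.11.15 and pandas 2.3.3, and the count rule was tested on simulated data. Named were WDR5, the 15 highest and 15 lowest genes (leaving out small RNAs, pseudogenes and unnamed loci, of which 1, a pseudogene, ranked among the highest), up to 6 members per list, all metallothioneins and cell type markers. Further members of the groups described were named after their values were seen. The members and the lists were chosen with earlier results of these data known. Filters, probe set choice, normalization and fold were varied; lowess centring used statsmodels 0.14.6. Precision is limited by having 1 array per group.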

Additional observations from a re-analysis of the deposited data

How the results depend on the processing

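The counts of genes 1.5-fold apart, 313 higher and 346 lower on the siRNA-1 array, stayed within 1.5 times their value without a filter (392 and 417), with the mean of probe sets (301 and 340), quantile normalization (271 and 389), median centring (305 and 350) and lowess centring (284 and 388). They were 168 and 206 at the 75th percentile filter, 110 and 126 with only genes at or above the highest background row (chosen after seeing the data), both of which test fewer genes, and 70 and 97 at 2-fold. No group median of at least 0.20 in size and no named gene at least 1.5-fold apart changed sign under any of these. Group medians moved by 0.1 or more in 34 of 391 recalculations, all from filters or probe set choice. No paired analysis was possible because each group has 1 array.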

Other observations

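Counts by class of gene were as follows, with no test of the differences between classes. Of 239 kept long noncoding RNAs 20 (8.37%) were at least 1.5-fold higher with siRNA-1 and 8 (3.35%) lower, against 4.05% and 4.65% of the 6866 kept protein-coding genes. Of 116 kept transcribed pseudogenes 8 were higher and 2 lower, and of 191 kept miRNA genes 4 (2.09%) were higher and 17 (8.90%) lower, 13 of the latter in the chromosome 14 locus. On chromosome 14, 32 of 263 kept genes (12.2%) were at least 1.5-fold lower, 15 of them in the locus, and 17 of 237 (7.17%) without it. On chromosome 19, 7 of 546 (1.28%) were lower and 25 higher.

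Runs of 3 or more neighbouring kept genes, all at least 1.5-fold apart in the same direction, were found at 7 places: 4 in the chromosome 14 locus, 1 among the metallothioneins, 1 among the beta protocadherins and 1 on chromosome 1. The last, chosen after its values were seen, joins RGS16 and RGS8, which encode regulators of G protein signalling, with LINC01686. RGS16 stood at 10.08 with siRNA-1, 11.18 with siRNA-2 and 10.54 with control, and RGS8 at 6.51, 7.63 and 7.25.

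Where a gene at least 1.5-fold apart had further probe sets (31 genes), another of them lay on the same side in 15, on the opposite side alone in 8 and was tied in 8; in 6 it was also at least 1.5-fold apart. These probe sets were read from the same arrays and are no replicates.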
